A study of Mus musculus with 23 samples.

Results

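The genes described here are 9 mouse genes that serve or control the burning of fatty acids, *Cd36*, *Cpt1a*, *Acadvl*, *Acadl*, *Acadm*, *Pdk4*, *Angptl4*, *Ppara* and *Pparg*. They were chosen by symbol, not by their values, and were 9 of the 55449 gene rows in the table of counts. The name fatty acid oxidation and ketogenesis genes holds for oxidation and its regulators only, since none of the 9 encodes an enzyme of ketone body synthesis. All 9 genes passed the filter on low counts in each of the 9 comparisons made.

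RNA-seq of mouse colon was available in 23 libraries. All mice were male Cdx2Apcf/w mice of the strain C57BL/6, 6 to 8 weeks old at the start, on a high-fat diet labelled 60% HFD. In these mice a *Cdx2*-driven Cre deletes a floxed copy of the tumor suppressor *Apc* in gut epithelium, and a wild-type copy is left. The mice carried *Bacteroides fragilis* 638R, either with an empty vector (BF638R bsh-, here BF BSHlow) or with the bile salt hydrolase gene *bsh* of another *B. fragilis* strain (BF638R bsh+, here BF BSHhigh). By the study's methods, mice to be colonized first drank water with the antibiotics neomycin, streptomycin and bacitracin. Diet, genotype, antibiotics and colonization with *B. fragilis* were thus shared by all groups, and no group without the bacterium was included. Normal colon was taken after 2 weeks (4 libraries for each strain), and non-tumor colon (4 libraries for each strain) and tumors (4 for BF BSHlow and 3 for BF BSHhigh) after 12 weeks. The labels do not say which libraries came from the same mouse, so p-values measure only the spread between libraries, which may be technical. The 3 BF BSHhigh tumors could be told apart from the other libraries as a group but not by their own labels and are called a, b and c.

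Fatty acids enter a cell partly through the membrane protein CD36 and enter mitochondria bound to carnitine, a step that carnitine palmitoyltransferase 1 (CPT1A in most tissues) controls. Acyl-CoA dehydrogenases then start each round of beta-oxidation, each acting on its own range of chain lengths, and the product acetyl-CoA can be burnt or made into ketone bodies. The nuclear receptor PPARα, once fatty acids bind it, switches on most genes of this route, while PPARγ is known for fat storage in adipocytes and for differentiation of the colon epithelium. Mature colonocytes use short-chain fatty acids, butyrate above all, as their main fuel.

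PPARα and PPARγ bind DNA as partners of the retinoid X receptor at pairs of the half-site AGGTCA that lie 1 base apart. The 250 bases before a RefSeq start are shown for *Cpt1a*, *Acadvl*, *Acadm* and *Cd36*, which hold the half-site. They are also shown for *Ppara*, the gene with the largest fall over time and in tumors, which does not. These starts need not be the outer start of the gene. The windows of *Cpt1a*, *Cd36* and *Ppara* lie inside the gene models given below. Sequences are those of RefSeq on GRCm38.p6, 5′ to 3′ on the strand of the gene, and capitals mark AGGTCA or its reverse complement.
*Cpt1a* (chr19:3323051-3323300, plus strand): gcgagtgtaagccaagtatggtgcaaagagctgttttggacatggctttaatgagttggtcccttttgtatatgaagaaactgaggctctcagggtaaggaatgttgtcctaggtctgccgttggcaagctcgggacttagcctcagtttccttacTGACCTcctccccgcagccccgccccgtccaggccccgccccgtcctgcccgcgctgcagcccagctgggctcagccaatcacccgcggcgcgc
*Acadvl* (chr11:70015429-70015678, minus strand): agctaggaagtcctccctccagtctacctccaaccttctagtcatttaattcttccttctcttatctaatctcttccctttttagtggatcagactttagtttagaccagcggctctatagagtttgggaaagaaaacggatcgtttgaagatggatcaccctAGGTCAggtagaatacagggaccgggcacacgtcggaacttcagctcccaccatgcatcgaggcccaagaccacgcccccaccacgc
*Acadm* (chr3:153944644-153944893, minus strand): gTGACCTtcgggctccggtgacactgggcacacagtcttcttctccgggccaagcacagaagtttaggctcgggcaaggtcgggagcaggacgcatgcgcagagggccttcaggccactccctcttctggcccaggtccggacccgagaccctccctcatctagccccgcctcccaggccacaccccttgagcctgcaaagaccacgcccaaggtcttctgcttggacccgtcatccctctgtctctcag
*Cd36* (chr5:17835897-17836146, minus strand): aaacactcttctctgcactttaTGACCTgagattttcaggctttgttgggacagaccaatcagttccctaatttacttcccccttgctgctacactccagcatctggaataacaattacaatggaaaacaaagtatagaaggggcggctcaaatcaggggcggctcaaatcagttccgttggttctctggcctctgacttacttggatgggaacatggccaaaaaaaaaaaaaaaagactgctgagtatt
*Ppara* (chr15:85735526-85735775, plus strand): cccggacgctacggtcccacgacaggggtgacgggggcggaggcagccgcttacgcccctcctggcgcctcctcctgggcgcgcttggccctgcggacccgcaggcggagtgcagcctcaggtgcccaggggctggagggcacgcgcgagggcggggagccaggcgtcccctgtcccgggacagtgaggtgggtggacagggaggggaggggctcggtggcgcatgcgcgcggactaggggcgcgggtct

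The half-site, on either strand, was in 6 of the 10 promoters of the 8 genes with an entry, and in 14% of all 32851 promoters searched. By gene it was in 5 of the 8, the fifth being *Pparg* with 2 of its 3 promoters. No share by gene was taken over all genes. It began 94 bases before the start in *Cpt1a*, 87 in *Acadvl*, 249 in *Acadm* and 228 in *Cd36*. *Acadl* and *Pdk4* held no match either, and *Angptl4* is named only. A pair of half-sites 1 base apart with up to 2 mismatches was found in 3.24% of all promoters and among these genes in *Cd36* alone, as TGGCCTCTGACTT, 63 bases before the start. These matches describe the letters in this window and say nothing of binding.

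Libraries held 12401388 to 17903008 expected counts (median 15874872). The unit CPM stands for counts at a common library size, with TMM factors taken over the 23 libraries. Several libraries stood apart in the genes described. Replicate 4 of BF BSHlow non-tumor colon was the highest of its group in all of the genes but *Ppara*. Replicate 3 of BF BSHlow normal colon at 2 weeks and replicates 1 and 4 of BF BSHhigh non-tumor colon carried 10 adipocyte genes at a summed 330 CPM, 170 CPM and 160 CPM, against 13.4 to 74.5 CPM in the other 20 libraries. Results that rest on these libraries are given with and without them.

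The tissues also differed in genes that mark cell types. The summed level of 10 surface colonocyte genes lay between 21120 and 34320 CPM at 2 weeks, between 4154 and 8266 CPM in non-tumor colon, between 313 and 721 CPM in BF BSHlow tumors and between 869 and 2446 CPM in BF BSHhigh tumors. That of 10 genes of the whole epithelium lay between 14310 and 19170 CPM at 2 weeks, between 10670 and 14190 CPM in non-tumor colon and between 5123 and 9163 CPM in tumors. Over time 5 of the 10 surface colonocyte genes were called lower and 0 higher in each strain. Of these genes, *Car1* was at 6595 to 18580 CPM at 2 weeks and at 60.1 to 707 CPM in non-tumor colon. *Car4* was at 410 to 1274 CPM and at 519 to 1329 CPM, so the sum did not stand for each gene. Smooth muscle genes were high in non-tumor colon only, at 1807 to 9663 CPM against 173 to 361 CPM at 2 weeks and 282.5 to 453 CPM in tumors. Macrophage genes summed to 42.9 to 133 CPM at 2 weeks, 166 to 734.5 CPM in non-tumor colon and 352 to 1085 CPM in tumors. Between the last 2 tissues, 1 of the 10 was called higher in tumors and 0 lower in each strain. The mitochondrial share of counts was 7.3% to 15.9% at 2 weeks and 2.48% to 3.29% in tumors. Such differences were present in every comparison of tissues below, though not for every cell type, and their part in the results was not tested. In bulk tissue, fewer cells of a type and less RNA per cell cannot be told apart.

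In tumors most of the oxidation genes were lower than in non-tumor colon, and none was called higher. Of the 9 genes, 6 were called lower in BF BSHlow mice (adjusted p under 0.05 from edgeR), where 32.2% of all 16454 genes tested were lower and 33.3% were higher. In BF BSHhigh mice 5 of the 9 were lower, against 27.2% of all genes lower and 29.4% higher. *Cpt1a*, *Acadm*, *Acadvl*, *Ppara* and *Cd36* were lower in both, and *Pparg* was lower in BF BSHlow mice. The median log2 fold change was -1.21 over the 9 genes and 0.04 over all genes for BF BSHlow, and -0.76 and 0.04 for BF BSHhigh. With scaling by library size alone, the median of all genes moved to 0.37 and 0.35, 47% and 43.7% of all genes were higher and 23.1% and 18.3% lower, and of the 9 genes 6 and 4 were lower and *Angptl4* was higher in both.

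With TMM scaling, most of these genes were also lower in 12-week than in 2-week tissue. In BF BSHlow mice 5 of the 9 genes were lower in 12-week non-tumor colon than in 2-week normal colon and 0 were higher, against 23.5% and 25.6% of the 15532 genes tested. In BF BSHhigh mice 6 were lower and 1 was higher, against 22.7% and 27% of all genes. *Cpt1a*, *Acadm*, *Acadvl*, *Ppara* and *Pparg* were lower in both, *Pdk4* was lower and *Cd36* higher in BF BSHhigh mice. Median log2 fold changes were -0.63 over the 9 genes and 0.00 over all genes in BF BSHlow mice, and -0.66 and 0.03 in BF BSHhigh mice. With library size alone the medians of all genes were 0.23 and 0.31, 36.7% and 42.1% of genes were higher and 12.7% and 11.6% lower, and of the 9 genes 3 and 5 were lower. The time on diet, the time of colonization, the age of the mice and the tissue taken differed together here and cannot be told apart. The non-tumor libraries stand in both comparisons, so that a high library among them raises the one change and lowers the other.

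**Figure D1:**
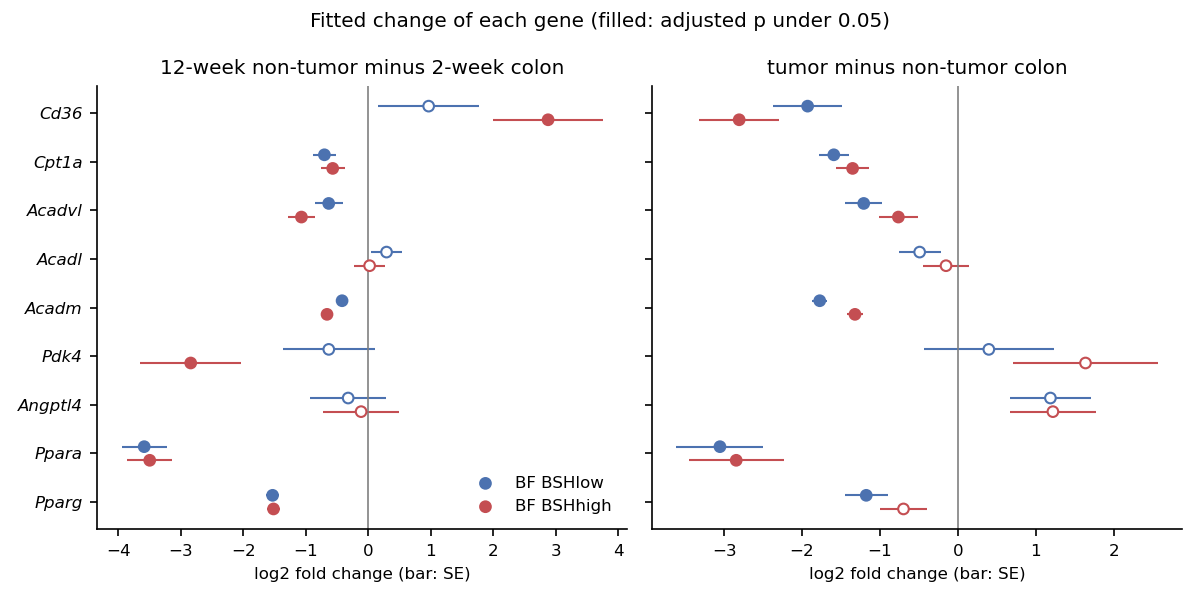
Fitted log2 fold change (x axis) of the 9 genes for 12-week non-tumor minus 2-week normal colon (left) and tumor minus non-tumor colon (right), with BF BSHlow in blue, BF BSHhigh in red, bars for the SE and filled points for adjusted p under 0.05. *Ppara* lies furthest left in both panels, at -3.59 and -3.50 for time and at -3.05 and -2.84 in tumors, and *Acadl* and *Angptl4* are open points throughout.

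*Cd36* (chr5:17781690-17888801, minus strand, GENCODE gene models on GRCm38 for this and the genes that follow) encodes a scavenger receptor that takes up long-chain fatty acids and is known from adipocytes, capillary endothelium, muscle and macrophages. At 2 weeks its level was 3.34, 1.83, 49.6 and 4.01 CPM in BF BSHlow mice and 1.36, 4.71, 8.09 and 2.73 CPM in BF BSHhigh mice. In non-tumor colon it was 15.4, 33.5, 28.2 and 36.5 CPM in BF BSHlow mice and 55.2, 18.1, 12.9 and 39.7 CPM in BF BSHhigh mice. In tumors it was 9.62, 7.64, 5.06 and 7.87 CPM in BF BSHlow mice and 7.397, 3.22 and 2.96 CPM in BF BSHhigh mice. *Cd36* thus had its highest means in non-tumor colon, and all tumors lay below all non-tumor libraries.

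The tumor change of *Cd36* was -1.93 ± 0.44 on the log2 scale (SE, adjusted p = 0.00157) in BF BSHlow mice and -2.81 ± 0.52 (adjusted p = 0.000396) in BF BSHhigh mice, both from edgeR. The rise from 2 to 12 weeks was 2.88 ± 0.88 (adjusted p = 0.013) in BF BSHhigh mice and 0.97 ± 0.80 (adjusted p = 0.337) in BF BSHlow mice. The BF BSHlow value rested on replicate 3 at 2 weeks, the library with 49.6 CPM. Without it the rise was 3.19 (adjusted p = 0.000671).

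The 3 libraries highest in fat cell genes were also the 3 highest in *Cd36*. Of 9 adipocyte genes tested in tumors, 2 were called lower in BF BSHlow and 4 in BF BSHhigh mice, with 0 higher. Over time 0 of 8 were called higher in either strain, with 2 lower in BF BSHlow and 0 in BF BSHhigh mice. Replicate 3 of BF BSHlow normal colon had *Adipoq*, the adipocyte hormone adiponectin, at 22.6 CPM, and replicates 1 and 4 of BF BSHhigh non-tumor colon, the highest in *Cd36* of their group, had it at 12.8 and 13.1 CPM. Without these 3 libraries the BF BSHhigh tumor change was -1.79 (adjusted p = 0.00502) and its rise over time 1.85 (adjusted p = 0.0111), so that both remained called at a smaller size. Replicate 4 of BF BSHlow non-tumor colon reached 36.5 CPM of *Cd36* with *Adipoq*, *Plin1* and *Lep* at 0 counts, and all 4 BF BSHlow tumors had these 3 genes at 0 as well. The adipocyte list was not absent from that non-tumor library. Its 10 genes summed to 43.2 CPM, mostly from *Fabp4* at 31.0 CPM and *Lipe* at 12.1 CPM, with 7 of the 10 at 0. In BF BSHlow tumors the sum was 13.45 to 28.2 CPM. Endothelial genes summed to 12.0 to 86.2 CPM at 2 weeks, 81.0 to 167 CPM in non-tumor colon and 242 to 293 CPM in tumors. Of these 10 genes, 7 in BF BSHlow and 10 in BF BSHhigh mice were called higher over time. In tumors 7 and 6 were called higher, and none was lower in either comparison. The part of fat cells and endothelium in the *Cd36* levels was not tested.

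**Figure D2:**
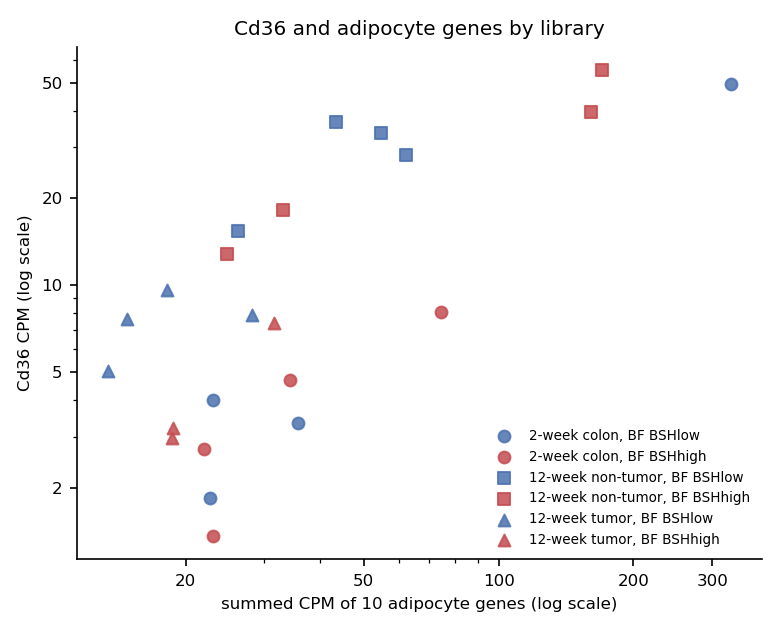
*Cd36* in CPM (y axis, log scale) against the summed CPM of 10 adipocyte genes (x axis, log scale) in the 23 libraries, with circles for 2-week colon, squares for non-tumor colon and triangles for tumors, BF BSHlow in blue and BF BSHhigh in red. The 3 libraries above 100 CPM of adipocyte genes hold the 3 highest *Cd36* levels, at 39.7, 49.6 and 55.2 CPM, and squares lie above the other symbols at low adipocyte levels.

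*Cpt1a* (chr19:3322334-3385733, plus strand) encodes the enzyme that commits long-chain fatty acids to mitochondrial oxidation. At 2 weeks it was at 459, 358, 395 and 546 CPM in BF BSHlow mice and at 489, 436, 356 and 405 CPM in BF BSHhigh mice. Non-tumor levels were 252, 213, 221 and 400.3 CPM and 323, 241, 269 and 298 CPM in the same order of strains. Tumor levels were 89.8, 93.5, 87.4 and 94.5 CPM and 132, 112 and 89.5 CPM. In CPM, levels thus fell in 2 steps, with no overlap between tumors and non-tumor colon, and at 12 weeks only replicate 4 of BF BSHlow non-tumor colon reached into the 2-week range. The first step depended on the scale. In length-scaled CPM, divided by exon length and brought to a common total per library, BF BSHhigh means were 91.3 ± 9.45 at 2 weeks and 92.7 ± 7.78 in non-tumor colon (SD). BF BSHlow means were 109 ± 43.4 and 89.4 ± 24.3. Tumor means were 43.8 ± 3.01 in BF BSHlow and 50.9 ± 8.29 in BF BSHhigh mice.

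The first step of *Cpt1a* was -0.70 ± 0.19 on the log2 scale (adjusted p = 0.0064) in BF BSHlow mice and -0.57 ± 0.19 (adjusted p = 0.0206) in BF BSHhigh mice. The second step was larger, -1.59 ± 0.19 (adjusted p = 5.63e-06) and -1.35 ± 0.21 (adjusted p = 9.74e-05), a 3.02-fold and a 2.55-fold fall. Tumors kept their call in every alternative run. Over its 15 alternatives the BF BSHlow tumor value ran from -1.70 to -1.24. The first step in BF BSHlow mice ran from -0.96 to -0.50 and was called in all 16. The first step in BF BSHhigh mice lost its call without replicate 1 at 2 weeks (-0.49, adjusted p = 0.0634) and without replicate 2 of non-tumor colon (-0.50, adjusted p = 0.0611). With library size alone it was -0.28 (adjusted p = 0.222), where the median of all genes was 0.31.

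*Acadm* (chr3:153922357-153944632, minus strand) encodes the dehydrogenase of medium chains. Its level at 2 weeks was 200.5, 189.5, 183 and 182 CPM in BF BSHlow mice and 192, 198, 179 and 206 CPM in BF BSHhigh mice. The non-tumor libraries had 138, 134, 148 and 149 CPM in BF BSHlow mice and 126, 136, 121 and 104 CPM in BF BSHhigh mice. The tumors had 40.2, 41.8, 39.2 and 46.8 CPM in BF BSHlow mice and 53.2, 47.5 and 46.3 CPM in BF BSHhigh mice. In CPM the 3 tissues did not overlap in either strain. The fall over time depended on the scale. Length-scaled means at 2 weeks and in non-tumor colon were 88.9 ± 17.6 and 92.3 ± 5.25 in BF BSHlow mice (SD). They were 82.5 ± 10.1 and 78.3 ± 9.95 in BF BSHhigh mice.

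The tumor change of *Acadm* was -1.77 ± 0.10 (adjusted p = 1.15e-08) in BF BSHlow mice, with a mean of 42.0 ± 3.39 CPM (SD, n = 4) against 142 ± 7.47 CPM (n = 4). In BF BSHhigh mice it was -1.32 ± 0.10 (adjusted p = 4.42e-07). The change over time was -0.42 ± 0.08 (adjusted p = 0.000755) and -0.66 ± 0.08 (adjusted p = 1.75e-05). With library size alone the BF BSHlow change over time was -0.19 and lost its call (adjusted p = 0.113), with the median of all genes at 0.23.

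*Acadvl* (chr11:70010183-70015411, minus strand) encodes the dehydrogenase of very long chains, bound to the inner mitochondrial membrane. At 2 weeks it was at 329.8, 293, 275 and 256 CPM in BF BSHlow mice and at 333, 364, 268 and 332 CPM in BF BSHhigh mice. In non-tumor colon it was at 137, 137, 151 and 321 CPM in BF BSHlow mice and at 172, 149.9, 145 and 147 CPM in BF BSHhigh mice. In tumors it was at 71.7, 82.7, 86.6 and 87.8 CPM in BF BSHlow mice and at 104, 83.6 and 85.7 CPM in BF BSHhigh mice. Apart from the single BF BSHlow non-tumor library at 321 CPM, the 3 tissues formed separate levels in CPM. Length-scaled means at 2 weeks and in non-tumor colon were 196 ± 32.7 and 174 ± 74.8 in BF BSHlow mice (SD). They were 201 ± 34.0 and 143 ± 2.12 in BF BSHhigh mice.

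The tumor change of *Acadvl* was -1.21 ± 0.23 (adjusted p = 0.000415) in BF BSHlow mice and -0.76 ± 0.25 (adjusted p = 0.0196) in BF BSHhigh mice. Without replicate 4 of BF BSHlow non-tumor colon the first of these was -0.79 (adjusted p = 1.04e-05). The second lost its call without tumor b (-0.70, adjusted p = 0.0597) or tumor c (-0.72, adjusted p = 0.0571), and with library size alone (-0.46, adjusted p = 0.0854, median of all genes 0.35). It was also lost without the 3 libraries with fat cell genes (-0.71, adjusted p = 0.0822). Over time *Acadvl* changed by -0.63 ± 0.22 (adjusted p = 0.0264) in BF BSHlow mice and by -1.07 ± 0.22 (adjusted p = 0.00104) in BF BSHhigh mice. Replicate 4 of non-tumor colon set the size in BF BSHlow mice, since the change was -1.04 (adjusted p = 5.80e-06) without it, and the call was lost without each of the other 3 non-tumor libraries (-0.51 to -0.54, adjusted p = 0.0795 to 0.0856) or without replicate 1 (-0.57, adjusted p = 0.0694) or 2 (-0.62, adjusted p = 0.0509) at 2 weeks. It was also lost with library size alone (-0.41, adjusted p = 0.105, median of all genes 0.23), with a replicate block (-0.75, adjusted p = 0.0701) and without the 3 libraries with fat cell genes (-0.67, adjusted p = 0.0504), and kept in the other 8 of 16 alternatives. Exons of *Acadvl* overlap those of *Dvl2* on the opposite strand, and the strand setting of the counting is not given in the sources used here.

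*Acadl* (chr1:66830839-66863277, minus strand), whose enzyme prefers long and branched chains, was called in no comparison. It was at 165, 141, 174 and 176 CPM in BF BSHlow mice and at 175, 213, 189 and 174 CPM in BF BSHhigh mice at 2 weeks. Non-tumor levels were 159, 148, 135 and 365 CPM in BF BSHlow mice and 196, 166, 166 and 229.7 CPM in BF BSHhigh mice. Tumor levels were 121, 173, 154 and 138 CPM in BF BSHlow mice and 191, 147 and 177 CPM in BF BSHhigh mice. Every neighbouring pair of groups in the order of means overlapped.

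The tumor change of *Acadl* was -0.49 ± 0.27 (adjusted p = 0.123) in BF BSHlow mice and -0.15 ± 0.29 (adjusted p = 0.68) in BF BSHhigh mice, and the change over time was 0.29 ± 0.24 (adjusted p = 0.342) and 0.02 ± 0.24 (adjusted p = 0.952). No alternative called it in either comparison, and without replicate 4 of BF BSHlow non-tumor colon the tumor change was close to 0, at -0.01. Per exon length within tumors, where the counts of genes can be compared, *Acadl* was the highest of the 9 genes. It reached 266 ± 30.9 (SD, n = 4) and 298 ± 22.6 (n = 3) length-scaled CPM in BF BSHlow and BF BSHhigh tumors, above *Acadvl* at 112 ± 5.65 and 118 ± 6.89. In 2-week colon the order was the reverse, with *Acadvl* at 196 ± 32.7 and 201 ± 34.0 and *Acadl* at 153 ± 45.5 and 157 ± 32.3, where the ranges of one SD overlapped. On this scale *Acadl* was thus higher in tumors than at 2 weeks, which was not tested. In CPM its tumor means, 146 and 171.5, were below those at 2 weeks, 164 and 188.

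**Figure D3:**
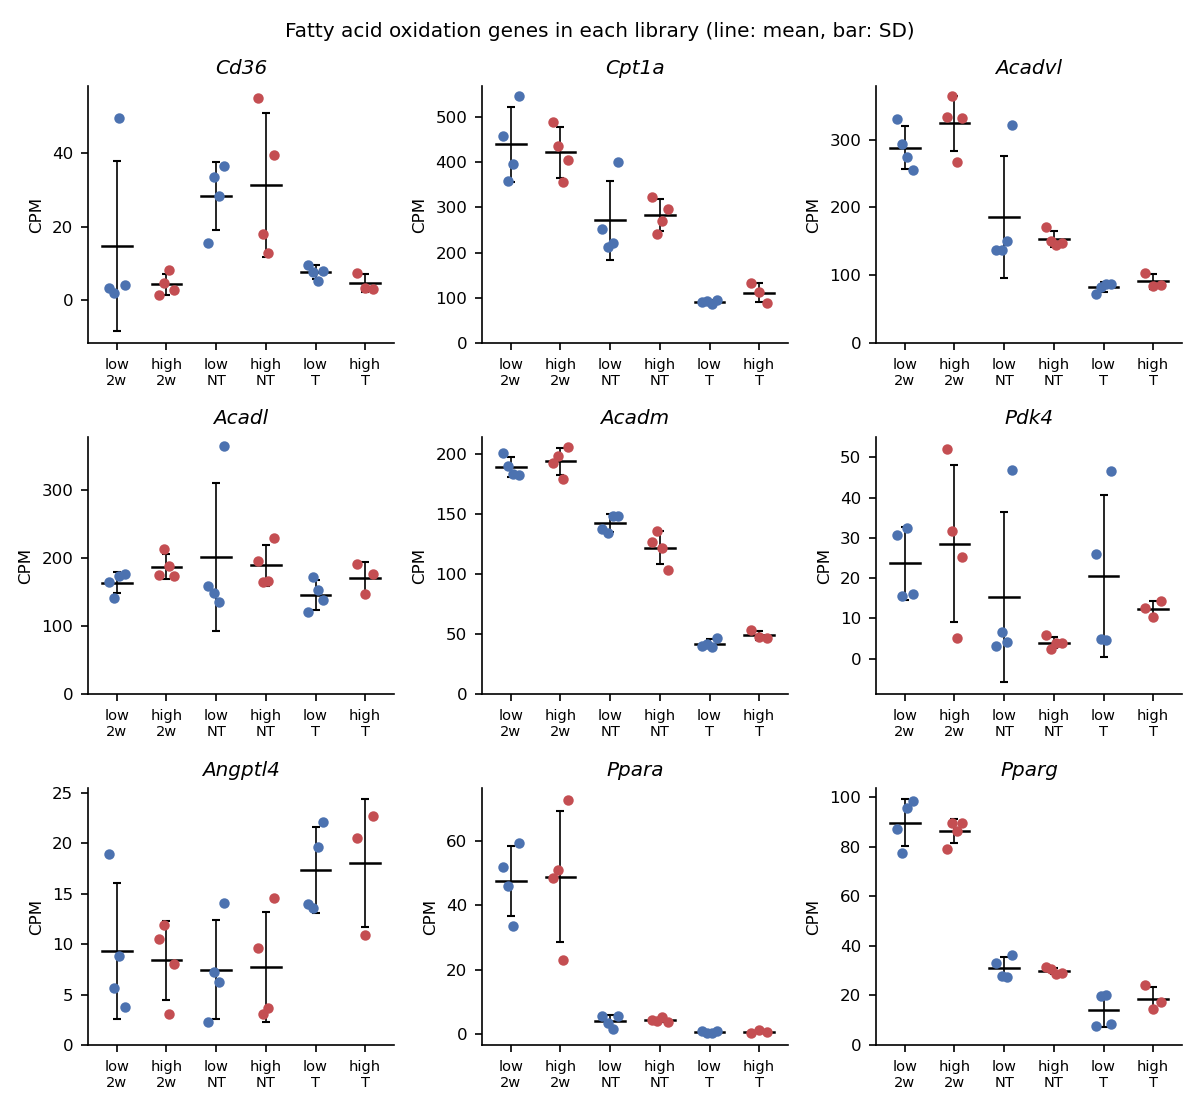
Level in CPM (y axes, linear) of the 9 genes in each library of BF BSHlow (blue) and BF BSHhigh (red) mice in 2-week normal colon (2w), 12-week non-tumor colon (NT) and 12-week tumors (T), with the mean as a line and the SD as a bar. *Cpt1a*, *Acadvl*, *Acadm*, *Ppara* and *Pparg* step down from 2 weeks to tumors, *Acadl* shows no such step, *Cd36* is highest in non-tumor colon, and single libraries such as *Pdk4* at 46.9 CPM in BF BSHlow non-tumor colon stand apart.

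*Pdk4* (chr6:5483351-5496309, minus strand) encodes pyruvate dehydrogenase kinase 4, which spares glucose by shutting off pyruvate dehydrogenase when fatty acids are burnt. It was at 30.8, 15.5, 32.3 and 16.04 CPM in BF BSHlow mice and at 52.1, 31.8, 5.05 and 25.3 CPM in BF BSHhigh mice at 2 weeks. The non-tumor libraries had 3.19, 6.70, 4.16 and 46.9 CPM in BF BSHlow mice and 5.81, 2.43, 3.82 and 3.74 CPM in BF BSHhigh mice. The tumors had 26.02, 4.93, 4.48 and 46.6 CPM in BF BSHlow mice and 12.5, 10.4 and 14.3 CPM in BF BSHhigh mice. Within BF BSHlow mice at 12 weeks the libraries were far apart, with replicate 4 the highest in both tissues.

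Over time *Pdk4* fell in BF BSHhigh mice, by 2.84 ± 0.81 on the log2 scale (adjusted p = 0.00847), although the library at 5.05 CPM at 2 weeks lay within the non-tumor range. In BF BSHlow mice the change was -0.63 ± 0.73 (adjusted p = 0.498), and without replicate 4 of non-tumor colon it was -2.33 (adjusted p = 0.00404). All 3 BF BSHhigh tumors were above all 4 non-tumor libraries, at a log2 difference of 1.64 ± 0.93 that was not called (adjusted p = 0.148). In BF BSHlow mice the tumor change was 0.40 ± 0.83 (adjusted p = 0.69). It was 2.13 and called (adjusted p = 0.0178) without non-tumor replicate 4, and -0.41 (adjusted p = 0.693) without tumor replicate 4. Whether the replicates numbered 4 came from 1 mouse is not stated.

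*Angptl4* (chr17:33773750-33781830, minus strand) encodes a secreted inhibitor of lipoprotein lipase that fasting and PPAR ligands are known to raise. At 2 weeks it was at 19.0, 5.67, 8.81 and 3.80 CPM in BF BSHlow mice and at 10.5, 11.9, 3.05 and 8.02 CPM in BF BSHhigh mice. In non-tumor colon it was at 2.30, 7.22, 6.21 and 14.1 CPM in BF BSHlow mice and at 9.63, 3.05, 3.70 and 14.6 CPM in BF BSHhigh mice. In tumors it was at 13.9, 13.6, 19.6 and 22.1 CPM in BF BSHlow mice and at 20.5, 10.9 and 22.8 CPM in BF BSHhigh mice. It was the one gene with its highest means in tumors, though the tumor range overlapped that of non-tumor colon in both strains.

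The tumor difference of *Angptl4* was 1.19 ± 0.52 (adjusted p = 0.0569) in BF BSHlow mice and 1.22 ± 0.55 (adjusted p = 0.0721) in BF BSHhigh mice, neither of them called by edgeR. DESeq2 called it in BF BSHlow mice (1.16, adjusted p = 0.0368) and limma-voom in both (adjusted p = 0.0225 and 0.0232). Without the highest non-tumor library it was called too, at 1.71 (adjusted p = 0.0118) in BF BSHlow mice without replicate 4 and at 1.72 (adjusted p = 0.0198) in BF BSHhigh mice without replicate 4. With the 2 BF BSHhigh non-tumor libraries with fat cell genes left out it was 2.40 (adjusted p = 0.00652). The time change was -0.32 ± 0.61 and -0.12 ± 0.61 (adjusted p = 0.685 and 0.888).

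*Ppara* (chr15:85734983-85802819, plus strand), the receptor that drives the oxidation genes in liver, had the steepest fall. It was at 51.9, 46.1, 33.5 and 59.4 CPM in BF BSHlow mice and at 48.6, 51.1, 23.1 and 72.9 CPM in BF BSHhigh mice at 2 weeks. Non-tumor levels were 5.56, 3.38, 1.64 and 5.42 CPM in BF BSHlow mice and 4.31, 3.86, 5.21 and 3.74 CPM in BF BSHhigh mice. Tumor levels were 0.736, 0.257, 0.143 and 0.782 CPM in BF BSHlow mice and 0.259, 1.07 and 0.429 CPM in BF BSHhigh mice. The 3 tissues did not overlap in either strain, and the tumor levels came from few counts, between 3 and 24 a library.

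Over time *Ppara* fell 12.0-fold (log2 change -3.59 ± 0.36, adjusted p = 2.21e-06) in BF BSHlow mice and 11.3-fold (-3.50 ± 0.36, adjusted p = 3.01e-06) in BF BSHhigh mice. In tumors the further change was -3.05 ± 0.56 (adjusted p = 0.000255) and -2.84 ± 0.61 (adjusted p = 0.00128). Without tumor b, the highest of its group at 1.07 CPM, the last value was -3.61 (adjusted p = 0.00106). All these calls were kept in every alternative run.

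*Pparg* (chr6:115360951-115490399, plus strand) followed with smaller steps. It was at 87.2, 77.4, 95.7 and 98.3 CPM in BF BSHlow mice and at 79.3, 89.6, 86.5 and 89.5 CPM in BF BSHhigh mice at 2 weeks. The non-tumor libraries had 33.2, 27.8, 27.5 and 36.1 CPM in BF BSHlow mice and 31.4, 30.5, 28.8 and 29.1 CPM in BF BSHhigh mice. The tumors had 7.61, 19.8, 20.3 and 8.46 CPM in BF BSHlow mice and 24.1, 14.4 and 17.3 CPM in BF BSHhigh mice. All tumors lay below all non-tumor libraries, and BF BSHlow tumors 1 and 4 lay well below tumors 2 and 3.

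The change of *Pparg* over time was -1.53 ± 0.10 (adjusted p = 6.95e-08) in BF BSHlow mice and -1.52 ± 0.10 (adjusted p = 1.01e-07) in BF BSHhigh mice. In tumors it was -1.18 ± 0.28 (adjusted p = 0.00183) in BF BSHlow mice. In BF BSHhigh mice it was -0.70 ± 0.30 and not called (adjusted p = 0.0591), although the groups did not overlap. It was called there by DESeq2 (-0.75, adjusted p = 0.0306), by limma-voom (-0.74, adjusted p = 0.0251), with RLE scaling (-0.75, adjusted p = 0.0481), in a fit of all 23 libraries (-0.69, adjusted p = 0.0264) and without tumor a (-0.93, adjusted p = 0.0346). Per exon length at 2 weeks *Pparg* lay above *Ppara*, at 57.0 ± 17.7 and 48.9 ± 7.98 against 23.4 ± 9.42 and 21 ± 8.58 length-scaled CPM (SD, n = 4 each).

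The question of the study was what the *bsh* gene of the bacterium changes in the host. In none of the 3 tissues was any of the 9 genes called between BF BSHhigh and BF BSHlow by edgeR, DESeq2 or limma-voom. Of all genes, edgeR called 0.509% of 15325 in tumors, 0% of 14933 in non-tumor colon and 0.00727% of 13752 at 2 weeks. In non-tumor colon, where edgeR called 0 genes, 1377 had an unadjusted p under 0.05, DESeq2 called 169 and limma-voom 0. At an unadjusted p under 0.05 there were 0 of the 9 genes in tumors, 2 in non-tumor colon and 0 at 2 weeks. The 2 were *Acadm*, at 122 ± 13.6 CPM (SD, n = 4) against 142 ± 7.47 CPM (n = 4) in BF BSHlow mice (log2 difference -0.23 ± 0.09, adjusted p = 0.512), and *Pdk4*, at 3.95 ± 1.40 against 15.2 ± 21.1 CPM (-1.95 ± 0.84, adjusted p = 0.532). The *Pdk4* value was set by replicate 4 of BF BSHlow mice alone, since the other 3 libraries lay between 3.19 and 6.70 CPM.

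The 9 log2 differences between the strains lay between -0.76 (*Cd36*) and 0.40 (*Pparg*) in tumors, between -1.95 (*Pdk4*) and 0.13 (*Cd36*) in non-tumor colon and between -1.77 (*Cd36*) and 0.26 (*Pdk4*) at 2 weeks. The SE in tumors was between 0.10 for *Acadm* and 0.79 for *Pdk4*. The difference of the tumor change between the strains was called for 0 of the 9 genes by edgeR, DESeq2 and limma-voom, where edgeR called 0.991% of all genes. *Acadm* had the only unadjusted p under 0.05, with a fall that was smaller by 0.45 ± 0.14 on the log2 scale in BF BSHhigh mice (adjusted p = 0.188). Surface colonocyte genes moved the same way: their sums did not overlap between the tumors of the strains, 2 of the 10 were called higher in BF BSHhigh tumors and for 5 of the 10 the test of the difference called a tumor change that was less negative or higher in BF BSHhigh mice. Their part in the *Acadm* value was not tested. For the change over time 0 of the 9 genes and 0% of all genes differed between the strains (edgeR, 1135 genes and 0 of the 9 at an unadjusted p under 0.05). DESeq2 called 35 genes there, none of the 9, and limma-voom 0. The changes of *Pparg* in BF BSHhigh mice and of *Pdk4* and *Cd36* in BF BSHlow mice, which missed the threshold where the other strain passed it, were therefore not shown to differ between the strains.

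The wider pathway was followed in 10 lists of genes. Their tumor counts stand against 32.2% of all genes lower and 33.3% higher in BF BSHlow mice and 27.2% and 29.4% in BF BSHhigh mice, and their counts over time against 23.5% and 25.6%, and 22.7% and 27%. Of 16 other genes of mitochondrial beta-oxidation, 14 were lower and 0 higher in BF BSHlow tumors than in non-tumor colon, and 12 and 0 in BF BSHhigh tumors. The median log2 fold change of this list was -1.10 and -0.77, against 0.04 for all genes in both. *Hadh*, the dehydrogenase of the third step, went from 284 ± 53.6 CPM (SD, n = 4) in non-tumor colon to 74.2 ± 6.83 CPM (n = 4) in BF BSHlow tumors (log2 change -1.95 ± 0.15, adjusted p = 1.11e-07). *Echs1*, the hydratase of the second step, changed by -1.16 ± 0.11 (adjusted p = 5.47e-07). Over time 7 of the 16 (23.5% of all genes) were lower and 1 higher in BF BSHlow mice and 12 (22.7% of all genes) and 1 in BF BSHhigh mice. The BF BSHlow count rested on replicate 4 of non-tumor colon, and without that library 13 of the 16 were lower and 1 higher. The tumor count of 14 lower was the same without it. *Hadha*, a subunit of the trifunctional protein of long-chain oxidation, was at 440 CPM in that library and at 178 to 189 CPM in the other 3 of its group.

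Of 6 further genes of the carnitine shuttle, 3 were lower and 1 higher in tumors of either strain, where 32.2% and 27.2% of all genes were lower. *Crat*, carnitine acetyltransferase, changed by -1.50 ± 0.12 (adjusted p = 1.59e-07) in BF BSHlow tumors and *Slc22a5*, the carnitine importer, by -1.03 ± 0.12 (adjusted p = 4.05e-06). The gene that was higher was *Cpt1c* (1.28 ± 0.35, adjusted p = 0.00517), the brain form of the enzyme, at 6.20 CPM in BF BSHlow tumors. In peroxisomes, which shorten very long chains, 7 of 11 genes were lower and 2 higher in BF BSHlow tumors and 5 and 2 in BF BSHhigh tumors. *Ehhadh* changed by -2.71 ± 0.23 (adjusted p = 1.90e-07), while *Acox2* (2.75 ± 0.93, adjusted p = 0.018) and *Hsd17b4* (0.30 ± 0.11, adjusted p = 0.0278) were higher. *Acox2* was low, with means of 0.484 CPM in BF BSHlow non-tumor colon and 3.40 CPM in tumors. Over time 9 of 12 of these genes were lower in either strain, with 0 higher in BF BSHlow mice and 1 in BF BSHhigh mice.

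Of 6 genes that make or use ketone bodies, 5 were lower and 0 higher in tumors of either strain, against the same 32.2% and 27.2% of all genes lower. *Acat1*, which joins acetyl groups at the start of ketone synthesis and also ends ketone use, changed by -2.04 ± 0.16 (adjusted p = 1.05e-07) in BF BSHlow tumors, and *Oxct1*, needed to use ketones, by -1.996 ± 0.17 (adjusted p = 1.98e-07).

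**Figure D4:**
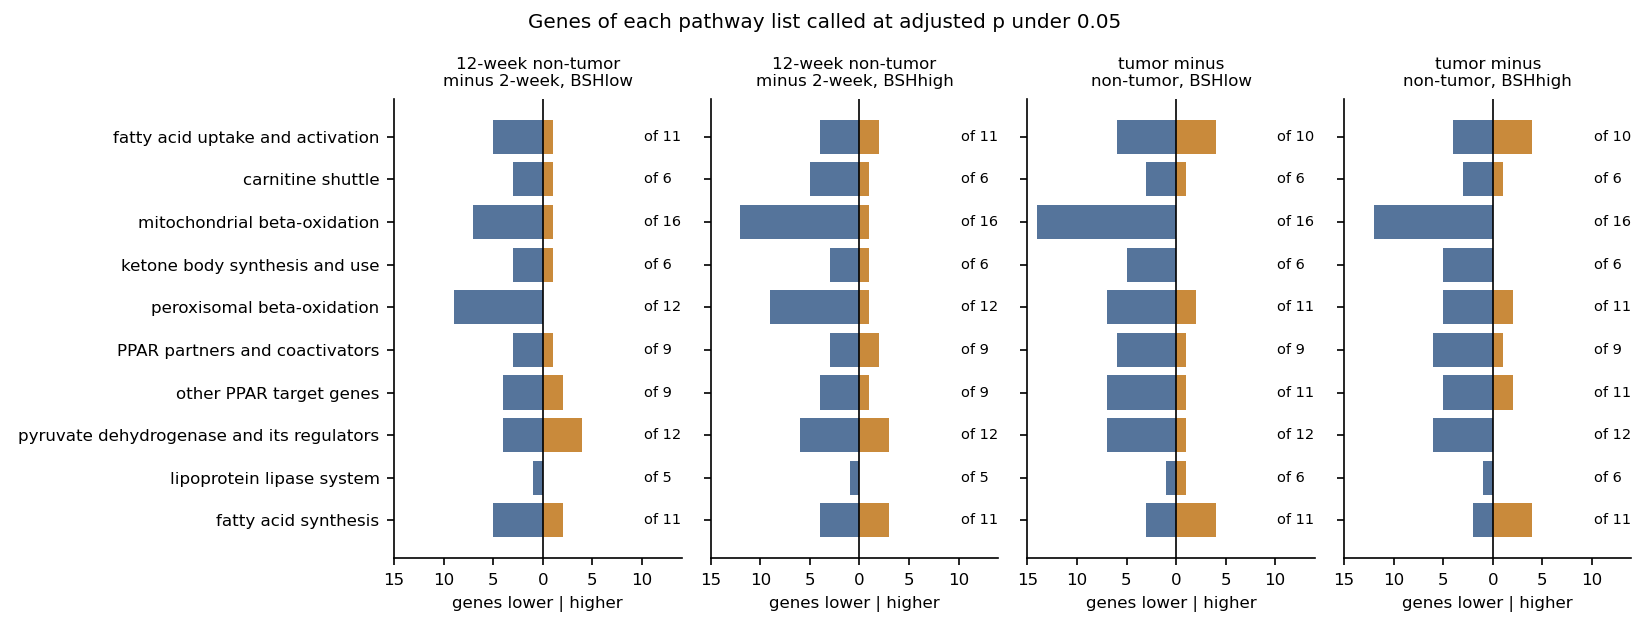
Number of genes called lower (blue, to the left) and higher (orange, to the right) at adjusted p under 0.05 in 10 pathway lists (y axis), with the number tested at the right of each row, for 12-week non-tumor against 2-week normal colon and for tumor against non-tumor colon in each strain. Mitochondrial beta-oxidation has 14 of 16 and 12 of 16 genes lower and 0 higher in tumors, where 32.2% and 27.2% of all genes were lower. Fatty acid synthesis, with 4 of 11 genes higher in both, lies near the shares of all genes of 33.3% and 29.4%.

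Among partners and coactivators of the PPARs, 6 of 9 genes were lower and 1 higher in tumors of either strain (all genes 32.2% and 27.2% lower). *Ppard*, the third PPAR, was at 219 ± 31.6 CPM at 2 weeks, 150.3 ± 20.2 CPM in non-tumor colon and 38.9 ± 3.81 CPM in tumors of BF BSHlow mice (SD, n = 4 each), a tumor change of -1.96 ± 0.14 (adjusted p = 5.49e-08). *Ncoa1*, a coactivator, changed by -1.80 ± 0.11 (adjusted p = 2.62e-08). Of 11 other PPAR target genes 7 were lower and 1 higher in BF BSHlow tumors and 5 and 2 in BF BSHhigh tumors. *Plin4* (-5.34 ± 0.64, adjusted p = 5.59e-06) and *Plin5* (2.75 ± 0.73, adjusted p = 0.00416), which both coat lipid droplets, went opposite ways, and *Txnip*, a thioredoxin inhibitor, changed by -3.12 ± 0.26 (adjusted p = 2.25e-07). *Plin5* was low, with means of 0.247 CPM in BF BSHlow non-tumor colon and 1.74 CPM in tumors. *Plin4* is also high in adipocytes.

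Of 12 genes of the pyruvate dehydrogenase complex, its regulators and the pyruvate carrier, on which PDK4 bears, 7 were lower and 1 higher in BF BSHlow tumors and 6 and 0 in BF BSHhigh tumors (all genes 32.2% and 27.2% lower). *Mpc1*, a subunit of the mitochondrial pyruvate carrier, changed by -1.40 ± 0.12 (adjusted p = 2.25e-07) and *Pdha1*, the catalytic subunit of the complex, by -0.90 ± 0.09 (adjusted p = 9.98e-07). The gene higher was *Pdp1*, the phosphatase that opposes the kinases (0.60 ± 0.14, adjusted p = 0.00191). Around ANGPTL4, the lipoprotein lipase list held 6 tested genes with 1 lower, *Lipg* (-1.56 ± 0.31, adjusted p = 0.000514), and 1 higher, *Lipc* (2.51 ± 0.74, adjusted p = 0.00841), in BF BSHlow tumors. *Lipc* was low, with means of 0.508 CPM in BF BSHlow non-tumor colon and 2.87 CPM in tumors. In BF BSHhigh tumors 1 gene of the list was lower and 0 higher. These lipase counts were no larger than the shares over all genes.

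Uptake and synthesis were mixed. Of 10 genes of fatty acid uptake and activation 6 were lower and 4 higher in BF BSHlow tumors, and 4 and 4 in BF BSHhigh tumors. *Fabp2*, the intestinal fatty acid binding protein, changed by -5.87 ± 0.75 (adjusted p = 1.07e-05) and *Slc27a2* by -2.32 ± 0.36 (adjusted p = 5.48e-05), while *Acsl4*, an acyl-CoA synthetase of polyunsaturated chains, rose by 2.02 ± 0.16 (adjusted p = 1.63e-07) and *Got2* by 0.60 ± 0.08 (adjusted p = 2.01e-05). Of 11 genes of fatty acid synthesis 4 were higher and 3 lower in BF BSHlow tumors and 4 and 2 in BF BSHhigh tumors, near the shares over all genes of 33.3% higher and 32.2% lower, and 29.4% and 27.2%. *Fasn*, fatty acid synthase, went from 182 ± 36.4 CPM in non-tumor colon to 439 ± 31.9 CPM (SD, n = 4 each) in BF BSHlow tumors (1.26 ± 0.17, adjusted p = 1.77e-05). *Elovl5* rose by 0.65 ± 0.09 (adjusted p = 3.01e-05), while *Acacb*, whose product malonyl-CoA inhibits CPT1, changed by -2.24 ± 0.48 (adjusted p = 0.000947) and *Acly* by -0.90 ± 0.15 (adjusted p = 0.000107).

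Over time, 23.5% of all genes were lower and 25.6% higher in BF BSHlow mice, and 22.7% and 27% in BF BSHhigh mice. In BF BSHlow and BF BSHhigh mice respectively, 5 and 4 of 11 uptake genes, 3 and 5 of 6 carnitine genes, 3 and 3 of 6 ketone body genes and 5 and 4 of 11 synthesis genes were lower, with 1 and 2, 1 and 1, 1 and 1, and 2 and 3 higher. Of 9 PPAR partners 3 and 3 were lower and 1 and 2 higher, and of 9 other target genes 4 and 4 were lower and 2 and 1 higher. Without replicate 4 of BF BSHlow non-tumor colon 6 of 10 target genes were lower and 2 higher in BF BSHlow mice. Of 12 pyruvate dehydrogenase genes 4 and 6 were lower and 4 and 3 higher, and of 5 lipase genes 1 and 1 were lower with 0 higher. Further BF BSHlow counts moved without the same replicate 4. Over time 4 of 6 carnitine, 10 of 12 peroxisomal and 5 of 12 pyruvate dehydrogenase genes were lower. Higher were 3 pyruvate dehydrogenase and 0 uptake genes. In tumors 4 of 10 uptake, 6 of 12 pyruvate dehydrogenase and 6 of 11 other target genes were lower. Higher were 3 of 11 synthesis and 2 other target genes. Between the strains no gene of any of the 10 lists was called in any tissue by edgeR.

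For each of the 9 genes, the 3 genes with the most similar pattern were sought among 16754 genes, by the root mean square difference of log2 CPM over the 23 libraries after centring each gene on its own mean. *Acadvl* had *Etfa*, which encodes a subunit of the flavoprotein that takes electrons from the acyl-CoA dehydrogenases, as its nearest gene, at a difference of 0.14 where *Acadvl* itself varied with an SD of 0.78. *Cisd1* and *Uqcrfs1* followed at 0.18 each. *Acadm* was nearest to *Fam234a*, *Tom1l2* and *Mkrn1* (0.13 to 0.15), *Cpt1a* to *Pxmp4*, *Gm44250* and *Hps5* (0.20 to 0.21) and *Pparg* to *Ptprd*, *Higd1a* and *Slc9a3r1* (0.27 to 0.30). *Acadl* lay at 0.23 from *Dbnl* and *Dlat* and at 0.24 from *Acad9*, little below its own SD of 0.31.

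The differences of the other 4 genes were larger in absolute terms. *Cd36* was nearest to *Sncg* (0.58), *Fabp4* (0.63) and *Cavin2* (0.68) with its own SD at 1.52, and *Fabp4* is 1 of the 10 adipocyte genes. *Ppara* was nearest to *Rgs13*, *Cyp2d26* and *Kbtbd11* (0.70 to 0.73, own SD 2.63). *Angptl4* was nearest to *Mutyh*, *Gnb1l* and *Fgd1* (0.61 to 0.63, own SD 0.96), and *Pdk4* to *Prodh*, *Rimbp3* and *Sox6* (0.90 to 0.96, own SD 1.38).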

How the data were processed

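Total RNA from mouse colon was sequenced in 23 libraries, and the deposited table holds 1 expected count per gene and library, which the authors made with RSEM. The submitters' notes name cutadapt, STAR, Picard and the mm10 build. The labels name a stranded total RNA kit and the study's methods an mRNA kit, and the strand setting of the counting is not given in the sources used here. The names of 20 columns matched the labels. The 3 BF BSHhigh tumor columns are unnamed and were taken as that group, because the authors' published listing of the same counts under class labels held equal values, within 0.5 counts, in all 1996 rows compared. A gene row with a text cell and a blank row were left out. No column was unused.

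Estimated counts were rounded to whole numbers (4.24% of values were not whole, none of them in the 9 genes). Genes were filtered with filterByExpr for each set of libraries, scaled by TMM and tested by quasi-likelihood F-test in edgeR 4.0.16 (R 4.3.3), with Benjamini-Hochberg adjustment over all genes tested and a threshold of 0.05. All adjusted p-values are from this test unless DESeq2 1.42.0 or limma 3.58.1 is named. The SE is the log2 fold change divided by the square root of its F value. CPM shown per library were scaled over all 23 libraries, where 16754 genes passed. Totals of 12401388 to 17903008 limit precision by counting error only. Tumor was compared with non-tumor colon, non-tumor with 2-week colon, and BF BSHhigh with BF BSHlow, with both interactions. Alternatives were DESeq2, limma-voom, RLE scaling, library size alone, no filter, 1 fit of all libraries, a replicate block, leaving out each library and, chosen after seeing the data, leaving out 3 libraries with fat cell genes and, for the list counts, replicate 4 of BF BSHlow non-tumor colon. The scripts were tested on simulated data. All 9 genes are described, and of each pathway list up to 2 called higher and 2 called lower are named, those with the smallest adjusted p in the BF BSHlow tumor comparison. Likeness to other genes was measured over log2 CPM centred on each gene's mean. Some genes that this rule would name are not reported here. The genes and the lists were chosen with earlier results of these data known. Promoters were searched with Python 3.11.15.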

Additional observations from a re-analysis of the deposited data

Results flagged for a closer look

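In 4 of the 45 groups of 4 libraries tested (9 genes and 5 groups), 1 library lay far from the others by Dixon's criterion, which chance meets in about 1 of 20 groups. *Cd36* was at 49.6 CPM in replicate 3 of BF BSHlow normal colon at 2 weeks and at 1.83 to 4.01 CPM in the other 3 libraries. The other 3 came from replicate 4 of BF BSHlow non-tumor colon. There *Acadl* was at 365 CPM against 135 to 159 CPM, *Acadvl* at 321 CPM against 137 to 151 CPM, and *Pdk4* at 46.9 CPM against 3.19 to 6.70 CPM. The cause was not tested.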

How the results depend on the processing

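Of 1357 alternative values of the 9 genes, 1227 kept their direction and their side of the threshold, 16 lost and 19 gained a call and 95 changed sign. None of the 352 alternatives of called values changed sign, and no value that changed sign was called. The number of the 9 genes called stayed within 1.5 times in all comparisons and alternatives except 1, the change over time in BF BSHlow mice with library size alone, where it was 3 in place of 5. That scaling also turned *Acadl* in BF BSHhigh tumors to 0.15 and *Angptl4* over time in BF BSHhigh mice to 0.17 on the log2 scale. Without the 3 libraries with fat cell genes *Acadl* was 0.0329 in BF BSHhigh tumors and -0.18 over time in BF BSHhigh mice. With 1 library left out, the tumor change of *Pdk4* in BF BSHlow mice ran from -0.41 to 2.13. The change over time of *Acadl* ran from -0.17 to 0.45 in BF BSHlow and from -0.0813 to 0.0835 in BF BSHhigh mice, and that of *Angptl4* from -0.83 to 0.29 and from -0.61 to 0.15. Whether replicate numbers pair the libraries could not be decided. The correlation of same-numbered deviations was 0.158, -0.0835, 0.0176 and 0.106 between BF BSHlow tumors and non-tumor colon. Such weak values from 4 libraries a group can neither show nor exclude a shared mouse. Tumor replicates 1 and 4 correlated best with the non-tumor library of their own number, and replicates 2 and 3 with one of another number. With the replicate number as a block, 7 of the 9 genes were called in BF BSHlow tumors, 4 over time in BF BSHlow mice, 7 over time in BF BSHhigh mice and 0 between the strains in either normal or non-tumor colon. The cause of these changes was not tested. Low counts limit *Ppara* in tumors, and *Plin5*, *Acox2* and *Lipc* in non-tumor colon.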
